A study of Homo sapiens with 16 samples.

Results

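The 256 genes described here were read in PC3 cells and almost not at all in HeyA8 cells, and they were followed through the HeyA8 cells that had received an siRNA. PC3 is a human prostate cancer line and HeyA8 a human ovarian cancer line. The members were the autosomal genes with 200 or more reads in each of the 2 PC3 mock libraries and 10 or fewer in each of the 2 HeyA8 mock libraries. Of 26485 genes in the count table, 280 passed these limits, and 24 of them were left out by name (HOX, collagen, laminin, integrin, keratin, histone and zinc finger genes, chemokines, interleukins and a few others). The members were thus chosen by their reads in the 4 mock libraries, and the difference between the lines in these libraries is not a finding. Just inside the limit for PC3 cells stood RADIL, with 200 and 221 reads at 24 and 48 h, and just outside stood CYP2S1, with 232 and 199 reads. Just inside the limit for HeyA8 cells stood CREB3L1, with 10 and 10 reads, and just outside stood CCDC113, with 11 and 9 reads.

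RNA was sequenced from both lines 24 and 48 h after mock treatment or transfection with siNT1, siGGGGGC or siCAG, at 1 nM by the sample descriptions, where the study's methods give a higher dose. siNT1 is the nontargeting control, and siGGGGGC carries the G-rich seed GGGGGC. Its libraries are named for it by the treatment field of the labels, while their titles and the columns of the count table read siMxy. The labels give siCAG by name only. Cells of both lines are labelled wild type. Each line, treatment and time point gave 1 library, so that each of the 8 groups holds 2 libraries, and every SD includes the difference between 24 and 48 h. The p-values measure only the spread between these libraries. A library held between 29128446 and 31790209 counted reads in HeyA8 cells and between 27937092 and 29971612 in PC3 cells.

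An siRNA loaded into an Argonaute protein can act like a microRNA, lowering mRNAs that pair with its seed, the first bases of the guide strand after the first one. A gene that a cell line does not transcribe gives no mRNA for such an siRNA to lower, so that a change there can be seen only as a gain of reads.

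The labels of the lines were read against 4 lists of marker genes in the mock libraries, and not all genes of a list followed the label. Of 14 prostate genes, 8 and 9 were above 10 reads in PC3 at 24 and 48 h, among them STEAP2 (891 and 765 reads) and SLC45A3 (762 and 1167). In the same libraries 4 were at 0, namely KLK2, KLK3, KLK4 and HPN. In HeyA8 5 of the 14 were above 10 reads, among them STEAP1, which was read at 1129 and 1132 against 774 and 597 in PC3. Of 8 ovarian and mesothelial genes, 4 were above 10 reads in each line, but not the same 4. FOXL2 was above 10 reads in HeyA8 only (72 and 90) and LHX9 in PC3 only (17 and 32). The summed levels were 173 and 231 CPM in HeyA8 and 16.7 and 16.2 in PC3. Most of the HeyA8 reads came from PAX8, a transcription factor gene of the Müllerian duct, with 4015 and 5623 reads against 131 and 95, while ESR1 was at 0, MUC16 had 1 and 0 reads, and LHX9 was higher in PC3. All 8 mesenchymal genes were above 10 reads in both lines. VIM, which codes for vimentin, had 190432 and 222814 reads in HeyA8 and 31245 and 32009 in PC3, while TWIST1 and SNAI2 were higher in PC3 at each time and CDH2 overlapped between the lines. Of 10 epithelial genes, 9 were above 10 reads in PC3 and 6 and 5 in HeyA8, but their summed levels overlapped, at 1365 and 1700 CPM in HeyA8 and 1460 and 1550 in PC3. The keratin gene KRT19 had 12 and 13 reads in HeyA8 and 9290 and 14929 in PC3, whereas KRT8 and KRT18 were higher in HeyA8. TMPRSS2 and CLDN4, which stand on these lists, are members, so their mock values were set by the rule.

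Most members stayed near 0 in HeyA8 cells after transfection. In the 6 HeyA8 siRNA libraries together the 256 genes had 4910 reads, against 1498334 in the 6 PC3 siRNA libraries, which is 0.304% of the PC3 level in CPM (counts scaled to a library total of 1000000) (95% Poisson interval 0.296 to 0.313%). This and the other intervals below cover counting error only. Of the members, 58 had no read in any of the 6 HeyA8 siRNA libraries and 43 none in all 8 HeyA8 libraries. The 58 held 401652 reads in the PC3 siRNA libraries. They were picked for having no read in these HeyA8 libraries, so no upper limit is drawn from that 0. Among those at 0 in all 8 HeyA8 libraries were MGMT, which codes for the enzyme that removes alkyl groups from guanine in DNA, and GSTM3, a glutathione transferase gene. MGMT had 354 to 601 reads per PC3 library and GSTM3 1028 to 1544.

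The members held between 0 and 6.56% of their PC3 level in the HeyA8 siRNA libraries. These percentages are shaped by the rule, which allowed at most 10 reads in a HeyA8 mock library whatever the level in PC3 and so left out genes with more. The median member was at 0.170% of its PC3 level, the quartiles were at 0.0121% and 0.863%, and 7 members were above 5%, the highest being NUPR1. These values pool all 6 libraries. NUPR1 had 105 reads in the siCAG library of 24 h, so its rank rests mostly on 1 library. The rank correlation between both levels was -0.0581 across the 256 genes, which are not independent of each other, and nothing is read from it. The 10 members with most reads in the PC3 siRNA libraries were PKP1, NEFL, CDH11, EEF1A2, MUC5B, ADGRF1, PTPRS, TRIM58, GPRC5C and PGM5. They held 31.1% of all member reads in PC3 and 1.38% in HeyA8. PKP1, which codes for the desmosome protein plakophilin 1, had between 19800 and 32744 reads in the PC3 siRNA libraries, and in HeyA8 cells 3 and 0 after siNT1, 6 and 2 after siGGGGGC, and 5 and 0 after siCAG. NEFL, the neurofilament light chain, CDH11, a mesenchymal cadherin, EEF1A2, a tissue-restricted elongation factor, and TRIM58, a ubiquitin ligase gene, were at 0 in all 6. Per kb of exon PKP1 and NEFL were at 81.9 and 76.8 CPM in the PC3 siRNA libraries.

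**Figure D1:**
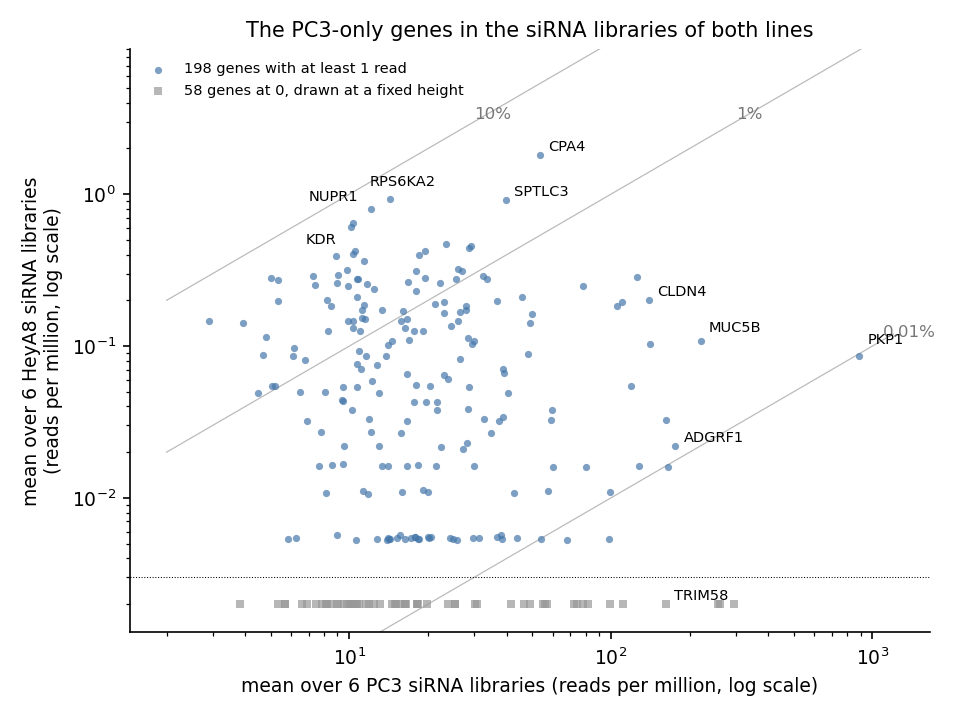
Each point is 1 of the 256 genes. The x axis gives its mean over the 6 PC3 siRNA libraries and the y axis its mean over the 6 HeyA8 siRNA libraries, both in CPM on log scales, and grey lines mark equal percentages of the PC3 level. The 58 genes at 0 in HeyA8 are drawn at a fixed height under the dotted line, across the whole range of PC3 levels.

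The 10 members with most PC3 reads had 68 reads in the HeyA8 siRNA libraries against 466507 in PC3, which is 0.0135% of the PC3 level (95% Poisson interval 0.0105 to 0.0172%). Per HeyA8 library these 10 genes had 7 and 2 reads after siNT1, 16 and 14 after siGGGGGC, 14 and 15 after siCAG, and 22 and 10 in the mock libraries. The low share is in part built in, since 10 reads are a smaller share of a gene with many PC3 reads. Whether reads of one line were carried into libraries of the other was not tested.

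A run of neighbouring members on the short arm of chromosome 9 held almost no HeyA8 reads. It was looked at after its values were seen. Between KLHL9, which ends at 21335430, and CAAP1, which starts at 26840685 (hg38), lie 21 genes of the count table over 5.51 Mb. Among them are 6 members: the long noncoding RNA MIR31HG, MTAP, a methionine salvage enzyme, CDKN2A and CDKN2B, which code for inhibitors of cyclin-dependent kinases, the RNA-binding protein gene ELAVL2, and TUSC1. In the siRNA libraries, which did not choose the members, the 21 genes had 29024 reads in PC3 and 1 in HeyA8, which is 0.00320% of the PC3 level (95% Poisson interval 8.10e-05 to 0.0178%). The 15 genes of the run that are not members had 1552 reads in PC3 and 0 in HeyA8, which allows up to 0.221% of the PC3 level at the upper end of the same interval. MTAP, from 21802636 to 21865970, had 1298 to 1875 reads per PC3 siRNA library and none in HeyA8. The flanking genes were read in both lines, KLHL9 with 6333 reads in the PC3 siRNA libraries and 7437 in those of HeyA8, and CAAP1 with 2429 and 3237. The copy number of the region was not measured here.

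**Figure D2:**
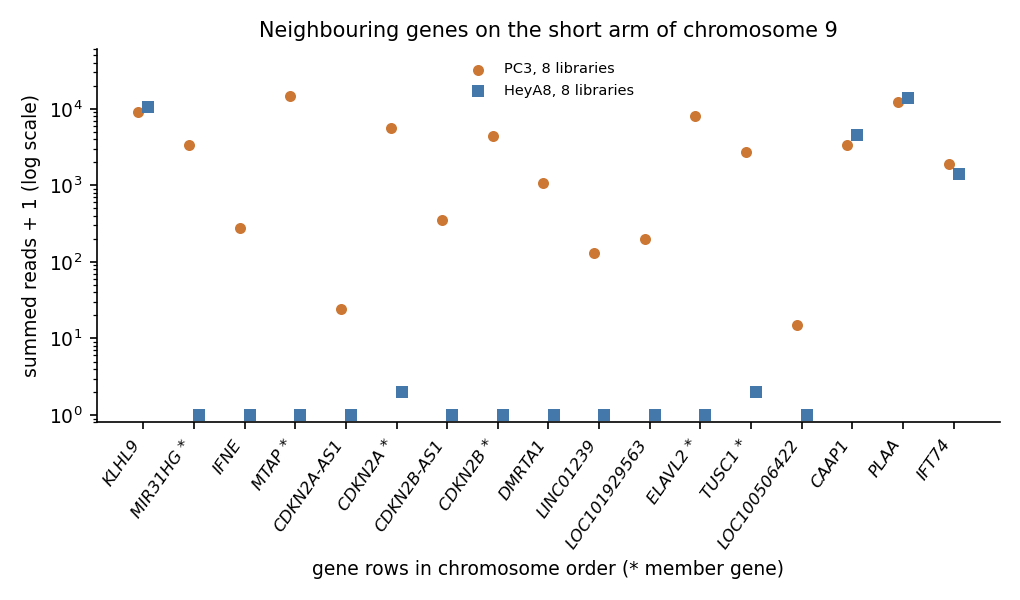
Gene rows with 10 or more reads in either line are shown in chromosome order on the short arm of chromosome 9, with the reads summed over 8 libraries of each line (the mock libraries that chose the members included) plus 1 on a log scale. PC3 (circles) and HeyA8 (squares) lie together at KLHL9 on the left and at CAAP1, PLAA and IFT74 on the right, and between them HeyA8 has 2 reads in all. Stars mark members.

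Other members also lay next to each other, within 500 kb. The 3 trefoil factor genes TFF1, TFF2 and TFF3 on chromosome 21, which code for small proteins secreted with mucus, had 22074 reads in the PC3 siRNA libraries and 4 in those of HeyA8. The gel-forming mucin genes MUC5AC and MUC5B on chromosome 11 had 42366 reads in the PC3 siRNA libraries and 24 in those of HeyA8, and the tight junction genes CLDN3 and CLDN4 on chromosome 7 had 25608 and 44. In the protocadherin cluster on chromosome 5, which codes for neuronal adhesion proteins, 6 members had 13076 and 216. All of these genes were chosen for this difference in the mock libraries, so nothing is read from its size. The PCDHA genes among them share their last exons, so reads there are uncertain between them.

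The summed reads of the members were higher after siCAG than after siNT1 in HeyA8 cells. The 256 genes had 589 and 489 reads at 24 and 48 h after siNT1, 628 and 755 after siGGGGGC, 986 and 1463 after siCAG, and 558 and 497 in the mock libraries that chose them. The mean sums in CPM were 17.7 ± 1.23 (SD, n = 2) after siNT1, 22.4 ± 3.26 after siGGGGGC and 40.0 ± 11.6 after siCAG. The siCAG libraries lay above all others at both times, and both siGGGGGC libraries lay above both siNT1 libraries by a smaller margin. The 10 members with most HeyA8 reads, among them CPA4, RPS6KA2, SPTLC3, NUPR1, KDR, PTHLH, C1R, TMEM255B and PDK4, held 28.1% of the HeyA8 reads and 2.74% of the PC3 reads. Without these 10, the means were 14.6 ± 0.934, 19.4 ± 3.55 and 23.5 ± 3.12, and siGGGGGC and siCAG overlapped, since the siGGGGGC library of 48 h (21.9 CPM) lay above the siCAG library of 24 h (21.3). In PC3 cells the members summed to 9080 ± 113 CPM after siNT1, 7828 ± 1092 after siGGGGGC and 9380 ± 293 after siCAG. More cells with such reads and more reads per cell cannot be told apart in these data.

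**Figure D3:**
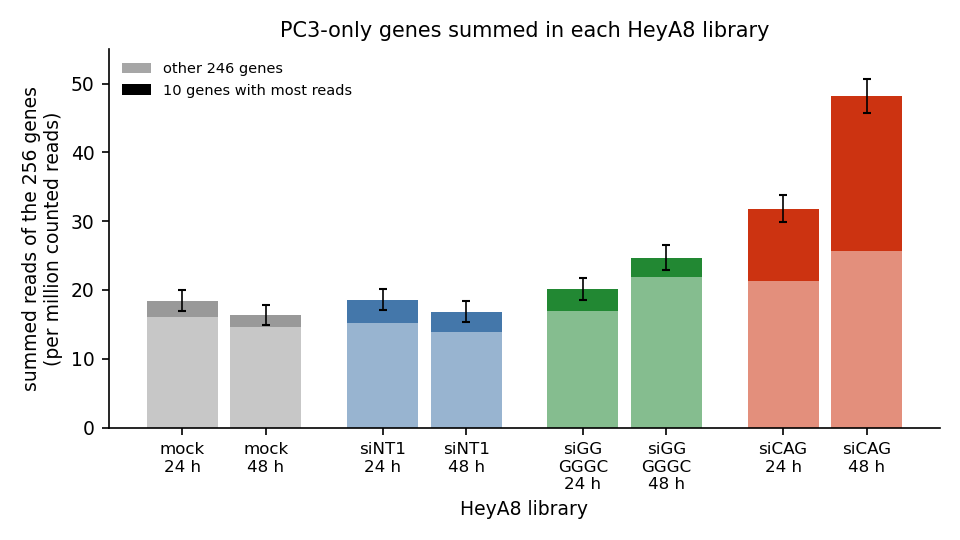
Bars give the summed reads of the 256 genes in CPM in each of the 8 HeyA8 libraries, with 95% Poisson intervals of the sum as error bars. The dark upper part is the share of the 10 genes with most reads. The bars stand between 16.3 and 24.7 in the mock, siNT1 and siGGGGGC libraries and at 31.8 and 48.2 after siCAG.

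The number of members above the limit of 10 reads followed the same order. It was 8 and 9 at 24 and 48 h after siNT1, 14 and 24 after siGGGGGC, and 30 and 34 after siCAG. Since the mock libraries were chosen to be at or under the limit, the siNT1 libraries give the number that lies above it without either of the other siRNAs. At both times, 4 members were above the limit after siNT1, 7 after siGGGGGC and 21 after siCAG, and 2 of the 21, CPA4 and CREB3L1, were also among the 4. No member was above it in all 6 libraries, and 191 were at or under it in all 6. A level of 50 reads was reached after siCAG only, by NUPR1 and RPS6KA2 at 24 h and by CPA4, RPS6KA2 and SPTLC3 at 48 h. The mirrored rule, with the limits of the lines exchanged, was set beside this. It picks 113 genes, which could hold up to 10 reads in a PC3 mock library. Of these genes 27 (23.9%) exceeded 10 reads in any PC3 siRNA library, against 65 of the 256 members (25.4%) in HeyA8. Per PC3 library 13 and 15 mirrored genes were above the limit after siNT1, 14 and 18 after siGGGGGC, and 15 and 14 after siCAG.

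Among the members with most HeyA8 reads, CPA4 and SPTLC3 stood highest in 1 library. CPA4, a carboxypeptidase gene (chromosome 7, 130293134 to 130324180) had 15 and 16 reads after siNT1, 16 and 4 after siGGGGGC, and 31 and 250 after siCAG. SPTLC3 (chromosome 20, 13008979 to 13166764), a subunit of the serine palmitoyltransferase that starts sphingolipid synthesis, had 10 and 5, 4 and 0, and 15 and 133 reads. In both genes the siCAG library at 48 h held most reads, and the 24 h library lay above both siNT1 libraries by less. Neither gene passed the threshold of an adjusted p under 0.05 in edgeR's quasi-likelihood test, with adjusted p = 0.118 for CPA4 and 0.167 for SPTLC3. PDK4, a kinase gene whose product switches off pyruvate dehydrogenase, had 9 and 9 reads after siNT1, 16 and 36 after siGGGGGC, and 1 and 7 after siCAG. Of these 9 named members it was the one whose highest value came after siGGGGGC.

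NUPR1, RPS6KA2 and KDR, which are also among the members with most HeyA8 reads, were high at both times after siCAG. NUPR1 (chromosome 16, 28537341 to 28539174), which codes for a small stress-induced regulator of transcription, had 8 and 6 reads after siNT1, 3 and 0 after siGGGGGC, and 105 and 25 after siCAG. RPS6KA2 (chromosome 6, 166409366 to 166862283) had 10 and 10, 5 and 10, and 52 and 84 reads. KDR, the receptor for vascular endothelial growth factor, had 10 and 10, 15 and 10, and 29 and 38 reads. In these 3 genes both siCAG libraries lay above all other HeyA8 libraries. In PC3 cells NUPR1 had 316 and 354 reads after siNT1 and 329 and 486 after siCAG, a log2 fold change of 0.20 ± 0.22 (SE, adjusted p = 0.734) that did not pass the threshold.

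**Figure D4:**
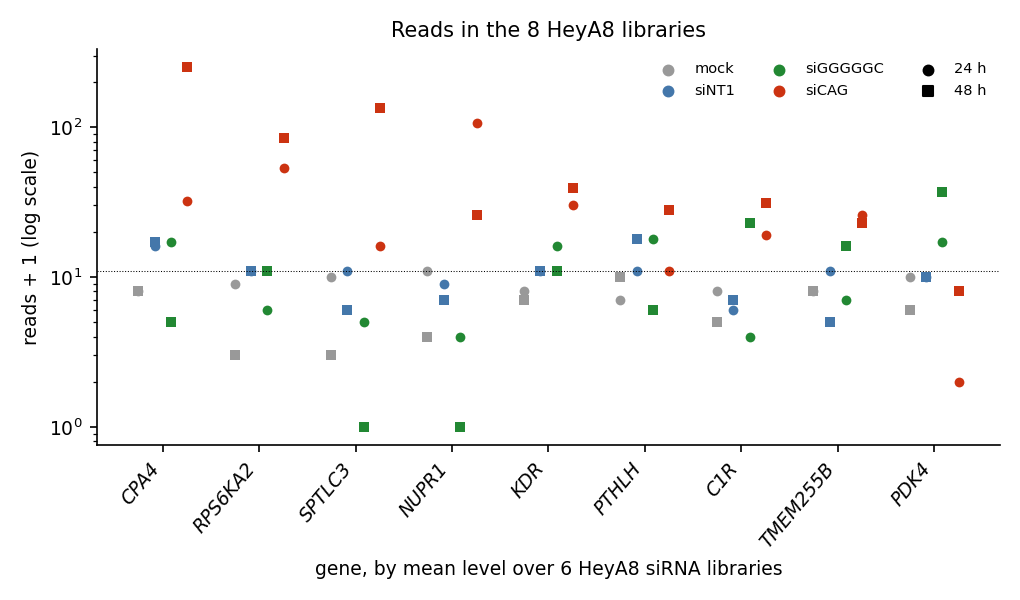
Reads plus 1 on a log scale in the 8 HeyA8 libraries for 9 of the 10 members with most reads, coloured by treatment, with circles for 24 h and squares for 48 h. The dotted line is the limit of 10 reads that both mock libraries had to meet. The highest point is an siCAG library for 8 of the genes, up to 250 reads for CPA4 at 48 h, and an siGGGGGC library for PDK4.

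Tests within HeyA8 cells reached only a small part of the members. Of 256 members, 36 had enough reads for the filter on low counts, which a gene can pass through 1 high group alone, so the counts that follow say nothing about the members as a whole. After siCAG, 2 of the 36 passed the threshold (adjusted p below 0.05) as higher than in siNT1 cells and 0 as lower, where 2.88% of the 13872 genes tested were higher and 4.93% lower. These were NUPR1, with a log2 fold change of 2.91 ± 0.68 (SE, n = 2 against 2, adjusted p = 0.0496), and PCDHA12, a neuronal protocadherin gene, with 2.74 ± 0.62 (adjusted p = 0.0463). Both exceeded 10 reads in the siCAG libraries alone and so reached the test through the group where they are high, and their p-values are given as a description. PCDHA12 had 6 and 2 reads after siNT1 and 26 and 28 after siCAG, so that the groups did not overlap. DESeq2 called 7 members higher among 1150 genes. With RLE size factors, another scaling for library size, NUPR1 was no longer called (adjusted p = 0.0508), nor was it without the term for time point in the model (0.0761), and PCDHA12 was not called without the filter (0.0635) or with the 4 compared libraries alone (0.0730). Both calls were lost without either siNT1 library, with adjusted p from 0.21 to 0.41. That of NUPR1 was also lost without the siCAG library of 24 h (adjusted p = 0.0823) and that of PCDHA12 without the one of 48 h (adjusted p = 0.0626). Without the siCAG library of 24 h, 11 members were called higher among 2022 genes. RPS6KA2 just missed the threshold at 2.68 ± 0.64 (adjusted p = 0.0518), as did OAS2, an interferon-induced gene, at 3.31 ± 0.77 (adjusted p = 0.0501). At an unadjusted p under 0.05, 15 of the 36 members were higher and 2 lower, and of all 13872 genes 2006 were higher and 2088 lower.

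After siGGGGGC no member and no other gene passed the threshold in HeyA8 cells with edgeR (0% of 13872 genes in each direction), while 851 genes were lower and 501 higher at an unadjusted p under 0.05. Among these were 3 members lower and 2 higher. DESeq2 called 263 genes lower and 55 higher, and edgeR on the 4 compared libraries alone called 769 and 411, none of them a member in either case.

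RELN, which codes for the secreted protein reelin, had 0 and 0 reads in HeyA8 cells after siNT1, 3 and 0 after siGGGGGC, 14 and 19 after siCAG, and 7 and 3 in the mock libraries. Set against 3 reads in place of the 0 over both siNT1 libraries, the 33 reads over both siCAG libraries were 10.9-fold higher. This ratio leaves out the counting error of the 33 reads and is no lower bound. The adjusted p of 0.0561 in edgeR's test missed the threshold. RELN was highest in the siCAG libraries and so reached this test through the group where it is high. Its p-value is given as a description. The siNT1 libraries also lay below the mock libraries, which chose the gene. In PC3 cells RELN had 3288 and 3965 reads after siNT1 and 3027 and 3058 after siCAG. In a model of all 16 libraries the siCAG effect differed between the lines at an adjusted p under 0.05 for 2 members, RELN and PCDHA12, where 0.636% of 15887 genes did. All members passed the filter of this model through their PC3 reads, and for RELN the effect in HeyA8 is measured from 0, so no support is drawn from this call. For siGGGGGC this test called 0 genes with edgeR, and at an unadjusted p under 0.05 it gave 29 members (11.3%) among 1054 genes (6.63%).

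Between the lines, all 256 members were higher in PC3 cells over the 12 siRNA libraries, where 36.2% of 15742 genes were. The members passed the filter through their PC3 reads and were chosen for this difference in the mock libraries, so nothing is read from this count. The reads of 255 members did not overlap between the lines, and 23.5% of the 21214 genes with a read lay higher in every PC3 than in every HeyA8 siRNA library. The exception was LINC00643, a long noncoding RNA gene, with 4 to 293 reads in the PC3 siRNA libraries and up to 17 in HeyA8.

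In PC3 cells, where all 256 members could be tested, siGGGGGC lowered more members than it raised. Against siNT1, 38 members were lower (14.8%) and 12 higher (4.69%), where 6.00% of all 15136 genes tested were lower and 3.67% higher. Among the 10281 genes that met the same limit of 200 reads in both PC3 mock libraries, 7.64% were lower and 4.36% higher. The counts moved with the model: 19 members were lower and 2 higher without the time term (448 and 177 genes), 19 and 3 with the 4 compared libraries alone (363 and 75 genes), and 60 and 18 with DESeq2 (1684 and 1135 genes). The median log2 fold change was -0.23 over the members and 0.00 over all genes. All 38 were lower at both times, 33 of them at least 2-fold, and 32 were lower by more at 48 h than at 24 h. The calls rest on both siNT1 libraries, since without either of them no gene passed the threshold. Without the siGGGGGC library of 24 h, 91 members were lower among 2111 genes, and without that of 48 h, 14 among 536.

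The member lowered most in PC3 cells was PLCXD3 (chromosome 5, 41306946 to 41510628), which belongs to the phospholipase C family. It had 1840 and 1190 reads after siNT1 and 227 and 86 after siGGGGGC, a log2 fold change of -3.38 ± 0.51 (SE, adjusted p = 0.0157). It had no read in any HeyA8 library. LINC00643 had 242 and 147 reads after siNT1 and 42 and 4 after siGGGGGC (-3.26 ± 0.61, adjusted p = 0.0249). The next 3 were CCDC141 at -2.60 ± 0.42, SSTR5-AS1 at -2.46 ± 0.42 and VSTM2L at -2.09 ± 0.35. SSTR5-AS1 is an antisense gene, and whether strand was used in counting is not given in the sources used here.

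The receptor genes EPHA5 and EPHA7 were both lower after siGGGGGC. EPHA5 had 387 and 230 reads after siNT1 and 106 and 61 after siGGGGGC (-1.90 ± 0.26), and EPHA7 had 177 and 160 and then 39 and 53 (-1.87 ± 0.32). They were 2 of 6 members among 22 Eph receptor and ephrin genes, whose products signal between touching cells, and the other 4 did not pass the threshold, where 6.00% of all genes tested and 14.8% of the members were lower. Of the 3 mucin genes among the members, 2 were lower, against the same shares. MUC5B fell from 8641 and 7820 reads to 4842 and 1299 (-1.64 ± 0.37, adjusted p = 0.0376), and MUC3A fell by 1.33 on the log2 scale, while MUC5AC, at -0.49 ± 0.31, did not pass. The 3 trefoil factor genes lay between -0.15 and 0.27 and did not pass.

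A list of 40 epithelial genes covers junctions and polarity and also holds transcription factor genes such as EHF. Of its 8 members 3 were lower after siGGGGGC and 0 higher, where 14.8% of all members and 6.00% of all genes tested were lower. JUP, the gene of the desmosome protein plakoglobin, had 1473 and 1757 reads after siNT1 and 733 and 417 after siGGGGGC (-1.51 ± 0.30, adjusted p = 0.0281). CLDN4 had 5195 and 6842 and then 3266 and 1806 (-1.26 ± 0.31, adjusted p = 0.0453), and EHF, an epithelial transcription factor gene, had 252 and 223 and then 88 and 132 (-1.12 ± 0.27, adjusted p = 0.0421). In each the siGGGGGC libraries lay below both siNT1 libraries. Of the other members on the list, CLDN3, ELF3, ESRP2, MYH14 and SPINT1 did not pass the threshold. Over the whole list 5 of 39 genes tested were lower and 2 higher, with a median of -0.17, where 6.00% and 3.67% of all genes tested were.

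The remaining lists held few members, and their counts in PC3 cells after siGGGGGC stand against 6.00% of all genes tested lower and 3.67% higher, or 7.64% and 4.36% among genes that met the limit of 200 reads. Of plasminogen activators, serpins and surface proteases, 2 of 14 genes tested were lower and 0 higher, among the former TMPRSS2, a surface protease gene of prostate epithelium (-0.85 ± 0.21, adjusted p = 0.0433). Of NRF2 targets and aldo-keto reductases, which answer oxidative and carbonyl stress, 3 of 17 were higher and 0 lower, among them the member ALDH3A1. A list of 200 genes was taken by the first letters of transcription factor symbols and so also holds antisense RNAs, a pseudogene and the receptor gene TBXA2R. Of its 104 genes tested 9 were lower and 2 higher, and the members FOXA2, IRX2, LHX6, SOX21 and TBX1 did not pass. Of 7 neural genes tested 1 was higher, and of 4 germline genes none passed, with the members NEFL and PRAME not past the threshold. In HeyA8 cells none of the members on these lists had enough reads to be tested. After siCAG in HeyA8 cells, 6 of 15 NRF2 targets tested were higher and 1 lower, none of them a member, where 2.88% of all genes tested were higher and 4.93% lower. Of 94 genes tested on the transcription factor list 6 were higher and 2 lower, and of 11 on the protease list 1 and 1. Of 14 epithelial and 6 neural genes tested none passed, and of 2 germline genes 1 was lower.

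The 12 members raised by siGGGGGC in PC3 cells were raised at both times, 6 of them at least 2-fold. PPFIA4, which codes for a liprin, a scaffold protein, had 91 and 192 reads after siNT1 and 278 and 1097 after siGGGGGC (2.15 ± 0.43, adjusted p = 0.0285), and 337 and 386 in the mock libraries. ALDH3A1, an aldehyde dehydrogenase gene, had 428 and 277 and then 1005 and 800 reads (1.35 ± 0.23, adjusted p = 0.0193). RIMKLA, the gene of an enzyme that makes N-acetylaspartylglutamate, had 863 and 1319 and then 1737 and 3804 (1.28 ± 0.23, adjusted p = 0.0237). ZSWIM5 at 1.13 ± 0.21 and CIART, a repressor gene of the circadian clock, at 1.11 ± 0.25 completed the 5 with the largest rise. In HeyA8 cells ZSWIM5 had 0 and 1 reads after siNT1 and 1 and 23 after siGGGGGC, and RIMKLA was at 0 in all 8 libraries.

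**Figure D5:**
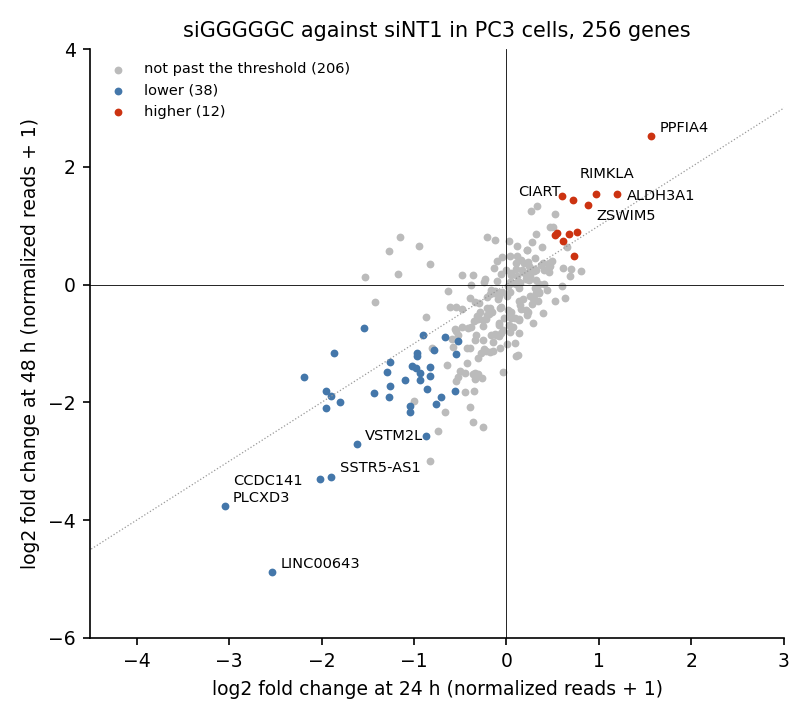
Log2 fold change after siGGGGGC against siNT1 in PC3 cells at 24 h (x axis) and 48 h (y axis) for the 256 genes, from normalized reads plus 1, with the 38 lower genes in blue, the 12 higher genes in red and the rest in grey. Each axis rests on 1 library per siRNA. Most blue points lie under the dotted line of equal change, that is, lower at 48 h than at 24 h.

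The siGGGGGC seed pairs with the 6 bases GCCCCC, and 3′ UTRs were searched for these letters on the transcript strand. A 3′ UTR was found for 238 members, and 107 of them (45.0%) held GCCCCC, against 4360 of 13371 genes tested in PC3 cells (32.6%). The median length was 1602.5 bases over the members and 1498 over the genes tested. Of members with GCCCCC 16 of 107 were lower (15.0%), and of those without it 18 of 131 (13.7%), with medians of -0.24 and -0.22. Of all genes tested, 10.3% with GCCCCC and 4.38% without it were lower. Of the 54 members with 2 or more such sites, 10 were lower (18.5%), and of the 1922 genes tested with as many, 288 (15.0%). The share that was lower thus differed less by the presence of GCCCCC among the members than among all genes, and this difference was not tested. A match of letters is a description, not a site of action.

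One such match with its surroundings is printed for each of 4 lowered members, to show how the letters lie in 3′ UTRs with many or few of them (hg38, GENCODE transcripts, DNA letters, 5′ to 3′ on the transcript strand, with GCCCCC in capitals). PALM, which codes for the membrane protein paralemmin, has 11 matches in its 3′ UTR, VSTM2L and B3GNT7 have 6 each, and PLIN4, a gene of a lipid droplet protein, has 3.
PALM, chr19:746815-746836, + strand: gccgGCCCCCgagaccccggcc
VSTM2L, chr20:37944254-37944283, + strand: actgatgcccctGCCCCCgcccatccgccc
B3GNT7, chr2:231398957-231398986, + strand: acttgctcctgaGCCCCCatggtattgggg
PLIN4, chr19:4504366-4504395, - strand: aactttctccccGCCCCCaaacctggatcg

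These 4 genes fell to different degrees. PALM had 536 and 509 reads after siNT1 and 141 and 117 after siGGGGGC in PC3 cells (-2.03 ± 0.21, adjusted p = 0.00773), VSTM2L had 317 and 334 and then 105 and 50, B3GNT7 had 255 and 430 and then 122 and 139, and PLIN4 had 646 and 705 and then 416 and 378 (-0.78 ± 0.17, adjusted p = 0.0363). In HeyA8 cells PALM had 1 read in the 6 siRNA libraries and VSTM2L none.

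After siCAG in PC3 cells 3 members were lower (1.17%) and 0 higher, where 1.16% of 15136 genes were lower and 0.0396% higher. Among genes that met the limit of 200 reads in both PC3 mock libraries, these shares were 1.61% and 0.0584%. PCDHAC2, another gene of the protocadherin cluster, had 327 and 367 reads after siNT1 and 91 and 78 after siCAG (-2.10 ± 0.21, adjusted p = 0.00400 in edgeR's test). B4GALNT4, which codes for a glycosyltransferase, had 637 and 486 and then 239 and 205 (-1.40 ± 0.23, adjusted p = 0.0311). CDS1, an enzyme of phospholipid synthesis, had 655 and 607 and then 375 and 266 (-1.06 ± 0.18, adjusted p = 0.0417). In all 3 the siCAG libraries lay below both siNT1 libraries and, for PCDHAC2 and B4GALNT4, below the mock libraries as well. Without 1 library the count of lower members was between 0 and 2. At an unadjusted p under 0.05, 25 members were lower (9.77%, against 8.51% of all genes) and 13 higher (5.08%, against 4.95%). DESeq2 called 7 members lower and 2 higher, where it called 458 and 114 genes. With the 4 compared libraries alone 28 members were lower and 23 higher, among 1624 and 722 genes, so that the count of calls depends on the libraries in the fit.

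The letters CAG in the name siCAG pair with CTG. The longest run of CTG was counted in the coding sequence and 3′ UTR of the 238 members with a coding transcript. A run of 4 or more was found in 7 members (2.94%), against 2.75% of genes tested, and 1 of the 7 was lower after siCAG. That gene was B4GALNT4, whose coding sequence holds a run of 8 (hg38, GENCODE transcript, with the CTG run in capitals).
B4GALNT4, chr11:369843-369872, + strand: aagCTGCTGCTGCTGCTGCTGCTGCTGagc

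B4GALNT4 had no read in the 6 HeyA8 siRNA libraries. PCDHAC2 had 9 and 9 reads there after siNT1, 12 and 18 after siGGGGGC, and 5 and 5 after siCAG. These are few reads, and no order is read from them. In PC3 cells it had 378 and 432 reads after siGGGGGC. Its log2 fold change of 0.21 against siNT1 did not pass the threshold there (adjusted p = 0.488 in edgeR's test).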

How the data were processed

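The authors made total RNA libraries after removal of ribosomal RNA, trimmed and aligned the reads (hg38), and assigned them to genes; the submitters' processing notes name STAR and HTSeq. The deposited values are whole-number counts per gene, not normalized, with 0 columns that belong to no sample. The members, gene lists and comparisons were chosen with earlier results of these data known.

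Counts were tested here with edgeR 4.0.16 in R 4.3.3: filterByExpr by siRNA group, TMM normalization, and a quasi-likelihood fit with group and time point as terms over the 8 libraries of a line (16 for effects compared between lines, 12 for the lines themselves), with Benjamini-Hochberg adjustment. The fit of 12 libraries left out the mock libraries. In the other fits they entered the filter, the normalization, the time term and the estimate of spread, but were not compared. Named genes were the 10 members with most siRNA reads in each line, up to 5 called members per direction with the largest change, and the members on the lists; others were named after their values were seen, and items that these rules name are in part not reported here. Levels are CPM of the library total. Transcript sequences were those of GENCODE on hg38 (longest 3′ UTR of coding transcripts); 241 members matched by symbol and 13 by an older one. The 7 members on alternate contigs are given without positions. The steps were tested on simulated data. Alternatives were RLE size factors, DESeq2 1.42.0, no filter, no time term, the compared libraries alone, each library left out, and other limits; the one without alternate contigs was chosen after seeing the data. Python 3.11.15 with pandas 2.3.3 and scipy 1.17.1 was used for sums and intervals.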

Additional observations from a re-analysis of the deposited data

Results flagged for a closer look

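In the model of all 16 libraries the siCAG effect against siNT1 was called as different between the lines for RELN and PCDHA12, with values of 7.59 and 3.11 on the log2 scale (HeyA8 minus PC3). Both genes entered the model through their PC3 reads and had few reads in HeyA8, so no support is drawn from either call. The value for RELN depends on how the fit treats the siNT1 libraries of HeyA8, which were both at 0 reads, and is no bound.

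Named members with 10 or fewer reads in the HeyA8 libraries of a comparison, such as RPS6KA2 after siGGGGGC, were left out here. Of the others, 4 had log2 fold changes on one side of 0 at both times in HeyA8 and on the other in PC3. Except for PCDHA12, given above, this difference did not pass the edgeR test between the lines (adjusted p = 0.704 for MUC5B, 0.187 for SPTLC3 and 0.356 for PTHLH). The mean log2 differences (HeyA8 minus PC3, from normalized reads plus 1) were 3.80 for MUC5B after siGGGGGC, and after siCAG 2.86 for PCDHA12, 3.06 for SPTLC3 and 1.20 for PTHLH. In HeyA8 cells MUC5B had 1 and 0 reads after siNT1 and 2 and 11 after siGGGGGC, so that its value rests on few reads. For PTHLH the HeyA8 value at 24 h was 0.021, so near to 0 that no direction is read from it.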

How the results depend on the processing

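Limits: each group holds 2 libraries from different times, members in HeyA8 cells rest on few reads, and siRNA effects within a line share the siNT1 libraries. The cause of the moves below was not tested.

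The summed CPM of the members kept the order siNT1, siGGGGGC, siCAG with TMM factors and without the members on alternate contigs. Without the 10 members with most reads, siNT1 gave 14.6, siGGGGGC 19.4 and siCAG 23.5, and the siGGGGGC and siCAG libraries overlapped. The rule gave 391 genes with limits of 100 and 10 and 148 with 400 and 10. Each of 15 fold changes of called members was refitted in 9 alternatives. None turned its direction, and of the refitted values 79 stayed past the threshold and 56 did not.

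No replicate numbers are given, so time point served as the block. Without the replicate block, siGGGGGC lowered 448 genes (19 members) and raised 177 (2 members) in PC3, and 3 genes were lower in HeyA8. After siCAG, 4 members were higher in HeyA8 (466 genes) and 1 lower in PC3 (160 genes).

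With DESeq2, siGGGGGC lowered 1684 genes (60 members) and raised 1135 in PC3, and in HeyA8 lowered 263 and raised 55. siCAG lowered 1507 and raised 1150 in HeyA8 (7 members higher), and in PC3 lowered 458 (7 members) and raised 114 (2 members).

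With the 4 compared libraries alone, siGGGGGC lowered 363 genes (19 members) and raised 75 (3 members) in PC3, and in HeyA8 lowered 769 and raised 411. siCAG lowered 432 and raised 148 in HeyA8, and in PC3 lowered 1624 (28 members) and raised 722 (23 members).

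Without a filter on low counts, siGGGGGC lowered 18 genes in HeyA8, and siCAG in PC3 lowered 235 (5 members) and raised 22. With RLE size factors siCAG raised 377 genes in HeyA8 (1 member, PCDHA12). With siNT1 alone as the contrast, 3015 genes were lower in PC3 than in HeyA8.

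Leaving out 1 library at a time, where a lone library is assumed to vary like the other groups, siGGGGGC in PC3 lowered 0 to 2111 genes (0 to 91 members) and raised 0 to 1591 (0 to 21 members). siCAG in HeyA8 lowered 42 to 3119 (0 to 1 members) and raised 0 to 2022 (0 to 11 members), and in PC3 lowered 30 to 114 (0 to 2 members) and raised 0 to 11.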
